A study of Mus musculus with 16 samples.

Results

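The 9 interferon-stimulated genes Bst2, Irf1, Irf7, Stat2, Isg15, Oasl2, Ifit1, Ifit3 and Rsad2 were followed through P4 mouse cochleae with and without loss of Lgr5+ supporting cells. The genes were taken by symbol, and all 9 were found among the 50316 genes listed in each library. Bst2 rose about 2-fold after damage both in whole tissue and in ribosome-bound RNA enriched for GLAST-Cre+ cells, and Irf1 rose in whole tissue by a call that 5 of 29 alternatives lost. Isg15 was called in both fractions with the replicate number fitted as a block and in DESeq2, but not in the limma fit without the block. That block pairs control and DTR pools by number only, and no label links them. Irf1 and Ifit1 were higher in ribosome-bound RNA than in whole tissue, with and without damage, and Rsad2 was lower, by calls that several alternatives lost.

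RNA was sequenced in 16 libraries, 4 inputs and 4 IPs from each of the control and DTR genotypes. Control mice were GLAST CreERT/+; Rpl22 HA/+ and DTR mice were Lgr5 DTR/+; GLAST CreERT/+; Rpl22 HA/+, with the diphtheria toxin receptor fused to EGFP and knocked into Lgr5. According to the study's methods, both genotypes received diphtheria toxin and tamoxifen at P1 and were harvested at P4, so the controls carry the toxin, the tamoxifen, the Cre driver and the tagged ribosomal protein too. The sample labels give the control treatment as none. Each replicate was a pool of 8 cochleae from 4 mice dissected free of spiral ganglion, Reissner's membrane and the lateral wall. Input was 5% of the homogenate, and IP was RNA precipitated through the HA tag that Cre puts on ribosomes, so an input and an IP with the same number come from the same pool. The IP enriches RNA of GLAST-Cre+ cells and does not purify it. Lgr5 fell in DTR inputs to 15.9 ± 3.69 CPM (reads of a gene scaled to the depth of its library, mean ± SD, n = 4) from 63.3 ± 3.03 CPM in control inputs (limma adjusted p = 2.2e-08), and no DTR input reached the lowest control input. Slc1a3, the gene for GLAST, was present in every group, at 236 ± 21.9 CPM in control IPs against 281 ± 14.3 CPM in control inputs, and was thus not enriched by the IP. Sox2, a supporting cell gene, was 0.37 higher on the log2 scale in control IPs than in control inputs (limma adjusted p = 0.038). It is not typical of its list of 10 supporting cell and greater epithelial ridge markers. At a limma adjusted p under 0.05, 2 of the 10 were higher in control IPs (19.3% of all tested genes) and 4 were lower (20.7%). Their median log2 fold change was -0.39. Libraries held 28089836 to 41966310 reads, so that 3 reads, the limit that a count of 0 allows, stood for 0.0715 CPM in the deepest and 0.107 CPM in the shallowest.

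Interferons are secreted proteins that signal through paired cell surface receptors and JAK kinases to STAT transcription factors. Type I and type III interferons (alpha, beta, lambda) assemble a complex that holds Stat2 and Irf9 and binds the interferon-stimulated response element (ISRE), whereas interferon gamma acts through the gamma-activated site (GAS). IRF proteins, among them Irf1 and Irf7, bind elements of the ISRE kind as well, and the induced genes encode mostly antiviral proteins. Many of these genes are also transcribed at a low level without interferon, and macrophages, which live in the cochlea from before birth, express many of them.

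Promoter windows of 300 bases, from 250 before to 50 after the RefSeq start on GRCm38.p6, were found for all 9 genes and searched on both strands for an ISRE-like run (GAAA, any 2 bases, GAAA) and a GAS-like run (TTC, any 3 bases, GAA). The ISRE-like run was in 6 of the 9 genes (Isg15, Bst2, Ifit1, Ifit3, Rsad2 and Stat2), compared with 3.99% of all 27025 genes with a window. The GAS-like run was in Irf1 and Bst2, compared with 9.55% of the 27025 genes. Neither run was in the windows of Irf7 and Oasl2, or in a second window of Irf1, which says only that these letters are not in those windows. The 7 stretches that hold a match are shown 5′ to 3′ on the gene's own strand, so that those of Bst2 and Irf1, the genes called after damage, can be set beside the others, and every matched base is in capitals. An ISRE-like match on the opposite strand reads TTTC, any 2 bases, TTTC.
Isg15, chr4:156200856-156200915 (-): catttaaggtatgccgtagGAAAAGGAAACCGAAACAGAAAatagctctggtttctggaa
Bst2, chr8:71537568-71537627 (-): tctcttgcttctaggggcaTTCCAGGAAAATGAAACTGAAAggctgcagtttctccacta
Ifit1, chr19:34640769-34640828 (+): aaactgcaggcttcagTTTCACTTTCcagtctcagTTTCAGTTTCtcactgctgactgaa
Ifit3, chr19:34583365-34583424 (+): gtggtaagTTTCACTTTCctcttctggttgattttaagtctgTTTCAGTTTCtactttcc
Rsad2, chr12:26456538-26456597 (-): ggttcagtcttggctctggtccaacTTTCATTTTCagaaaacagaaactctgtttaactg
Stat2, chr10:128270251-128270310 (+): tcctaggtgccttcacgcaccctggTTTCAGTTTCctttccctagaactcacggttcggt
Irf1, chr11:53769898-53769957 (+): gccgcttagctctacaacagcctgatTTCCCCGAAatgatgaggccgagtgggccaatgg
In Isg15 the 3 matches overlap and begin 78, 72 and 66 bases before the start. In Bst2, 2 overlapping ISRE-like matches begin 130 and 124 bases before the start, and the GAS-like match, which begins at 136, overlaps the first of them. The match of Irf1 begins at 90 and is GAS-like only. The matches of Ifit1 and Ifit3 are opposite-strand pairs. These matches are letters in a sequence, and no binding was measured.

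All 9 genes were detected in all 16 libraries, at levels that differed widely. Compared per kilobase of exon (GENCODE M21), Bst2 was the highest in control inputs at 11.7 ± 1.29 CPM per kb, followed by Irf1 at 3.54 ± 0.490, Isg15 at 2.81 ± 0.558 and Stat2 at 2.54 ± 0.449 CPM per kb, with Ifit1 next at 1.94 ± 0.367. Isg15 and Stat2 were closer to each other than their SD. Oasl2, Rsad2 and Irf7 lay within 0.1 CPM per kb of each other, at 0.698 ± 0.101, 0.678 ± 0.187 and 0.650 ± 0.165, and Ifit3 was the lowest at 0.401 ± 0.180 CPM per kb. The order changed in the IPs, where Irf1 was the highest gene in controls at 11.8 ± 2.79 CPM per kb and Bst2 followed at 9.68 ± 2.28, less than their SD apart. In DTR libraries Bst2 was the highest in both, at 24.8 ± 5.06 CPM per kb in inputs and 21.8 ± 3.96 in IPs. Rsad2 was the lowest in both IP groups. The read numbers behind the low genes were small: Ifit3 had 16 to 87 reads per library, whereas Irf1 had 500 to 2159. Ifit3 lies on chromosome 19 (34583531 to 34588731) beside Ifit3b, a near-identical copy, and its reads may be split between them, so its values are uncertain. Irf1 on chromosome 11 (53770014 to 53778374) overlaps Gm17334, and Irf7 on chromosome 7 (141262706 to 141266481) overlaps Phrf1, in each case on the opposite strand, and no strand setting of the counting is given in the sources used here.

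**Figure D1:**
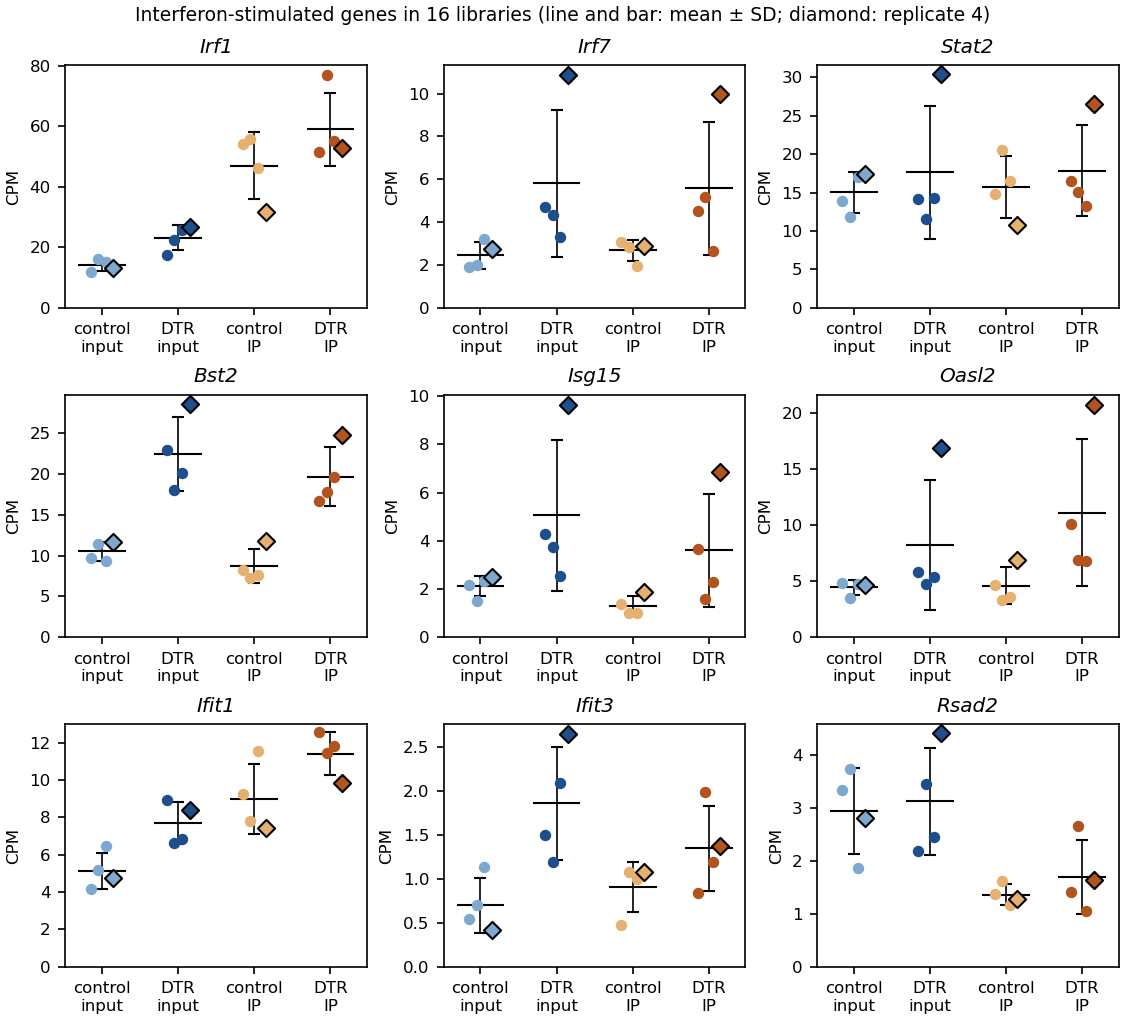
CPM of each gene (y axes, linear from 0) in the 4 groups (x axes). Points are libraries, diamonds are replicate 4, lines and bars are mean ± SD (n = 4). Bst2 separates DTR from control in both fractions, Irf1 separates IP from input, and the diamonds are the highest DTR points for Irf7, Stat2, Bst2, Isg15 and Oasl2 in both fractions.

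The first question was which of these genes differed between damaged and undamaged cochleae. All genes were fitted together on the log2(quantile-normalized CPM + 0.5) scale, on which changes of low genes come out smaller than their CPM ratios, and a gene was called when its limma p, adjusted over 16994 tested genes, was under 0.05. A gene was tested when it reached 0.5 CPM in all 4 libraries of some group, which 8 of the 9 did in a control group and Ifit3 only in DTR groups, so that its values and calls are given as a description. In IPs, 1 of 9 was called higher (Bst2), beside 8.44% of all tested genes called higher, and none lower, beside 7.3%. In inputs, 2 of 9 were called higher (Bst2 and Irf1), beside 7.17% of all tested genes, and none lower, beside 5.21%. The count in IPs is thus near the background for 9 genes. The median log2 fold change was 0.31 over the 9 in IPs, against -0.0043 over all tested genes, and 0.67 in inputs, against -0.021. In deposited CPM, on which overlap is described throughout, 6 of the 9 had every DTR input above every control input (11.6% of all tested genes), and 1 did in IPs (10.5%). On the quantile-normalized scale of the fit only Bst2 and Irf1 did in inputs (10.5% of all tested genes), while Ifit1, Ifit3, Isg15 and Irf7 overlapped, and Bst2 did in IPs (8.63%). The input and IP comparisons come from the same pools and are not independent of each other. By the criteria that the study's methods give for damage (at least 2-fold, adjusted p under 0.05, and a lowest DTR value over 1.5 times the highest control value), Bst2 passed in inputs, beside 1.34% of all tested genes, and no member passed in IPs, beside 1.12%. The replicate number was also fitted as a block, which pairs control and DTR pools by number alone. With it, 3 genes were called higher in IPs (Bst2, Oasl2 and Isg15), beside 11.8% of all tested genes, and 5 in inputs (Bst2, Irf1, Irf7, Ifit3 and Isg15), beside 9.31%.

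Bst2, on chromosome 8 (71534255 to 71537456), encodes tetherin, a membrane protein that holds budding enveloped viruses at the cell surface. Its levels were 9.75, 11.4, 9.36 and 11.7 CPM in control inputs and 22.9, 18.1, 20.1 and 28.6 CPM in DTR inputs. In the IPs they were 8.25, 7.28, 7.67 and 11.8 CPM in controls and 16.7, 17.7, 19.6 and 24.7 CPM after damage. Every DTR library was above every control library of its fraction, and the control and DTR groups did not overlap. The log2 fold change was 1.04 ± 0.190 (SE) in inputs (limma adjusted p = 0.00085) and 1.05 ± 0.190 in IPs (limma adjusted p = 0.0007). Without both DTR libraries of pool 4 it was 0.93 in inputs (limma adjusted p = 0.0031) and 0.92 in IPs (limma adjusted p = 0.0028).

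Irf1 is a transcription factor that interferon gamma induces. Its levels in inputs were 11.9, 16.3, 15.1 and 13.1 CPM in controls and 17.5, 22.5, 25.6 and 26.6 CPM in DTR. The groups did not overlap, with DTR replicate 1 closest to the controls, and the log2 fold change was 0.67 ± 0.178 (limma adjusted p = 0.017). This call was lost without control input replicate 1 (limma adjusted p = 0.059), DTR input replicate 3 (0.059), DTR input replicate 4 (0.05) or both DTR libraries of pool 4 (0.057). In IPs Irf1 stood at 54.1, 55.9, 46.3 and 31.5 CPM in controls and at 51.4, 76.9, 55.0 and 52.6 CPM in DTR. These groups overlapped, with control replicate 4 the lowest and DTR replicate 2 the highest, and the log2 fold change of 0.31 ± 0.178 was not called (limma adjusted p = 0.28, 95% interval -0.068 to 0.68).

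Irf7, the factor that drives interferon alpha transcription in infected cells, was at 1.88, 2.00, 3.19 and 2.74 CPM in control inputs and 4.73, 4.33, 3.29 and 10.9 CPM in DTR inputs. The groups did not overlap, but DTR replicate 4 was more than 2-fold above the other 3 DTR inputs. In IPs its values were 3.05, 2.82, 1.97 and 2.88 CPM in controls and 4.53, 5.16, 2.65 and 9.96 CPM in DTR, where replicate 3 fell among the controls. The log2 fold changes, 0.89 ± 0.343 in inputs and 0.66 ± 0.343 in IPs, were not called (limma adjusted p = 0.11 and 0.22), and with the block that of inputs was (limma adjusted p = 0.04). In inputs Irf7 was also called in edgeR (adjusted p = 0.046) and DESeq2 (adjusted p = 0.014), and in IPs it was called just under the threshold in DESeq2 (adjusted p = 0.05 when rounded). Stat2, the partner of Irf9 in the ISRE-binding complex, was at 13.9, 11.8, 17.1 and 17.4 CPM in control inputs and 14.1, 11.6, 14.4 and 30.5 CPM in DTR inputs. In IPs it was at 14.9, 20.5, 16.5 and 10.8 CPM in controls and 16.5, 15.02, 13.3 and 26.6 CPM in DTR. Apart from replicate 4, the DTR values lay within the control range or, for input replicate 2, just below it. The log2 fold changes of 0.11 ± 0.263 in inputs and 0.10 ± 0.263 in IPs were not called (limma adjusted p = 0.86 and 0.85), with 95% intervals of -0.44 to 0.66 and -0.45 to 0.65.

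Isg15 encodes a ubiquitin-like protein that is attached to other proteins. It was at 2.17, 1.52, 2.32 and 2.48 CPM in control inputs and at 4.28, 3.75, 2.55 and 9.62 CPM in DTR inputs. In IPs it was at 1.38, 1.02, 0.999 and 1.86 CPM in controls and at 3.66, 1.60, 2.29 and 6.87 CPM in DTR. The input groups did not overlap by a narrow margin, DTR IP replicate 2 fell below control IP replicate 4, and replicate 4 was the highest DTR library in both fractions. The log2 fold changes of 0.83 ± 0.372 in inputs and 0.88 ± 0.372 in IPs were not called (limma adjusted p = 0.18 and 0.12), whereas both were with the block (limma adjusted p = 0.048 and 0.013). Oasl2, an oligoadenylate synthetase-like protein, was at 4.81, 3.49, 4.79 and 4.71 CPM in control inputs and 5.85, 4.79, 5.36 and 16.9 CPM in DTR inputs. In IPs it was at 4.63, 3.35, 3.62 and 6.90 CPM in controls and 10.1, 6.91, 6.79 and 20.7 CPM in DTR. In IPs the groups met at the control value of replicate 4, with DTR replicate 3 just below it. The log2 fold change in IPs, 0.97 ± 0.374, was not called (limma adjusted p = 0.091). It was called in 6 of 29 alternatives, among them the block (limma adjusted p = 0.0021) and the fits without control IP replicate 4 (0.045) or DTR input replicate 4 (0.036). In inputs it was 0.57 ± 0.374 (limma adjusted p = 0.40).

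Ifit1 and Ifit3, both on chromosome 19, encode proteins that bind viral RNA. Ifit1 was at 4.19, 5.18, 6.48 and 4.74 CPM in control inputs and 8.92, 6.62, 6.87 and 8.37 CPM in DTR inputs. The input groups did not overlap, and replicate 4 was not the highest of the DTR inputs. The log2 fold change was 0.51 ± 0.172 in inputs (limma adjusted p = 0.064) and 0.27 ± 0.172 in IPs (limma adjusted p = 0.34), where controls ran from 7.42 to 11.6 CPM and DTR from 9.83 to 12.6 CPM. Ifit3 was at 0.548, 0.704, 1.14 and 0.414 CPM in control inputs and 1.51, 1.19, 2.09 and 2.65 CPM in DTR inputs. The input groups did not overlap, with the highest control just under the lowest DTR value. The log2 fold change of Ifit3 was 0.82 ± 0.268 in inputs (limma adjusted p = 0.053, and 0.035 with the block) and 0.19 ± 0.268 in IPs (limma adjusted p = 0.69). In inputs it was called in 10 of 28 alternatives, which is no support for a rise, since Ifit3 entered the test only through the DTR groups. Ifit1 was called in inputs in 4 of 29 (lowest limma adjusted p = 0.027, without control input replicate 3). Rsad2 on chromosome 12, the gene for the antiviral enzyme viperin, ran from 1.86 to 3.74 CPM in control inputs and from 2.19 to 4.42 CPM in DTR inputs, with log2 fold changes of -0.028 ± 0.247 in inputs and 0.017 ± 0.247 in IPs (limma adjusted p = 0.97 and 0.98). No member was called for a difference between the change in IPs and the change in inputs (limma interaction, adjusted p = 1 for each, none of 9 at an unadjusted p under 0.05), beside 0.0118% of all tested genes. An unadjusted p under 0.05 was found for 5.12% of all tested genes, and edgeR, DESeq2 and the block also called none of the 9. The widest interaction interval, that of Oasl2, ran from -0.72 to 1.51.

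**Figure D2:**
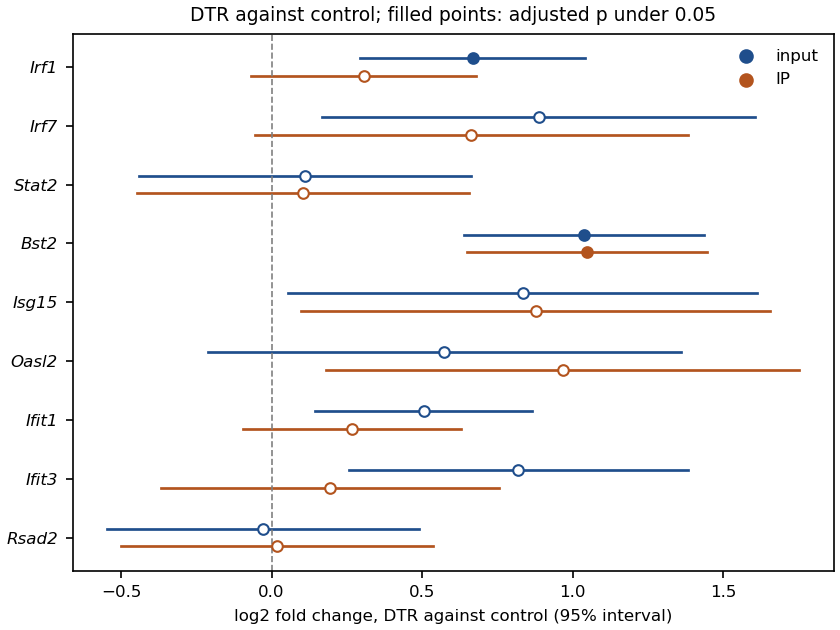
Log2 fold change of DTR against control (x axis) for each gene in inputs and IPs, with 95% intervals from limma. Filled points have an adjusted p under 0.05, which holds for Bst2 in both fractions and for Irf1 in inputs. Isg15 in both fractions, Irf7, Ifit1 and Ifit3 in inputs and Oasl2 in IPs have intervals above 0 without passing the adjusted threshold.

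DTR pool 4 stood apart from the other DTR pools for these genes, in both libraries made from it. In DTR inputs 8 of the 9 genes were highest in replicate 4, where 33.8% of all tested genes were, and in DTR IPs 5 of 9 were, where 21.4% of all tested genes were. On the log2 scale Oasl2 was 1.64 above the mean of the other 3 DTR inputs, Isg15 1.42, Irf7 1.37 and Stat2 1.15, and in IPs the same genes were 1.37, 1.45, 1.305 and 0.86 above. Bst2 was 0.43 and 0.50 above, and Irf1 0.24 above in the input and 0.12 below in the IP. The median over the 9 genes was 0.70 in the input and 0.50 in the IP, against 0.024 and 0.026 over all tested genes. Of 44 other interferon-stimulated genes, 33 were highest in DTR input 4 and 31 in DTR IP 4, so the elevation was not limited to the 9. DTR input 4 was also highest for 7 of 9 receptor signalling, 5 of 6 endothelial and 9 of 14 macrophage genes, and for 0 of 6 mesenchyme genes. In DTR IP 4 these counts were 2, 2, 4 and 1. In controls replicate 4 was the highest library for 3 of 9 genes in inputs (24.9% of all tested genes) and for 4 of 9 in IPs (22.6%). The neuronal marker list moved the other way in DTR pool 4, with a median 2.47 below the other DTR inputs and 1.86 below the other DTR IPs, and the macrophage list had medians of 0.32 and 0.35 above. The neuronal sum was also lowest in replicate 4 among controls, at 178 CPM in inputs (others 211 to 729) and 107 CPM in IPs (others 135 to 299.8). Whether these differences in tissue content bear on the interferon-stimulated genes was not tested. Without both DTR libraries of pool 4, Bst2 alone of the 9 was called in each fraction. The log2 fold changes then came to 0.55 for Irf7, 0.48 for Isg15 and 0.16 for Oasl2 in inputs, and to 0.34, 0.52 and 0.62 in IPs, each with a limma adjusted p between 0.1 and 0.77. Stat2 turned to -0.17 in inputs and -0.11 in IPs, again not called.

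**Figure D3:**
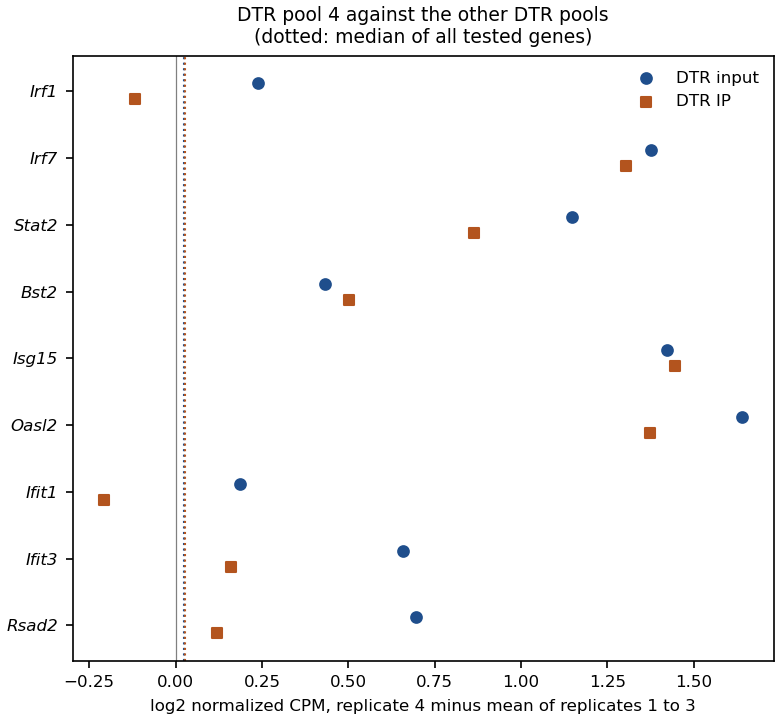
Difference between DTR replicate 4 and the mean of DTR replicates 1 to 3 (x axis, log2 of quantile-normalized CPM + 0.5) for each gene, circles for input and squares for IP. Oasl2, Isg15, Irf7 and Stat2 lie from 0.86 to 1.64 in both libraries of the pool, Irf1 and Ifit1 lie within 0.24 of 0, and the dotted medians of all tested genes are at 0.024 and 0.026.

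The second question was whether the transcripts were enriched on the ribosomes of GLAST-Cre+ cells. Gene length was not corrected for in these fits, whereas the study corrected a length effect of its IP samples before clustering. In controls 2 of 9 were called higher in IP than in input (Irf1 and Ifit1), beside 19.3% of all tested genes, and 1 lower (Rsad2), beside 20.7%. In DTR samples the counts were again 2 higher, beside 18.6%, and 1 lower, beside 20.5%, with Irf1, Ifit1 and Rsad2 as the called genes. The median log2 fold change over the 9 was 0.11 in controls and -0.018 in DTR, against -0.0012 and -0.027 over all tested genes. With 9 genes, counts of this size lie near the background. Irf1 was the gene with the largest enrichment, 1.67 ± 0.178 in controls (limma adjusted p = 7.1e-07) and 1.31 ± 0.178 in DTR (limma adjusted p = 1.5e-05). All 4 IPs were above all 4 inputs in each genotype, from 31.5 CPM upwards against 16.3 CPM and below in controls. Ifit1 was enriched by 0.81 ± 0.172 in controls (limma adjusted p = 0.001) and by 0.57 ± 0.172 in DTR (limma adjusted p = 0.013), and again the IP and input values did not overlap. Rsad2 was at 3.34, 3.74, 1.86 and 2.82 CPM in control inputs and at 1.38, 1.63, 1.18 and 1.28 CPM in control IPs. Each control IP lay below each control input, and the log2 fold change was -0.77 ± 0.247 (limma adjusted p = 0.018). It was -0.73 ± 0.247 in DTR samples (limma adjusted p = 0.025), where the values overlapped.

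The call of Rsad2 in controls was lost without control input replicate 1 or 2 (limma adjusted p = 0.053 and 0.054), and in DTR samples without DTR IP replicate 1 or 3 or DTR input replicate 2 or 4 (limma adjusted p = 0.063 to 0.094). In all, the call was lost in 3 of 29 alternatives in controls and in 8 of 29 in DTR samples, where the adjusted p reached 0.17 in edgeR without both DTR libraries of pool 4. The block added Isg15 as lower in control IPs (log2 fold change -0.47, limma adjusted p = 0.044) and Oasl2 as higher in DTR IPs (0.50, limma adjusted p = 0.021), and Oasl2 was also called there without DTR input replicate 4 (0.91, limma adjusted p = 0.036). Bst2, the gene that rose with damage, was not called between IP and input, at -0.22 ± 0.190 in controls and -0.21 ± 0.190 in DTR (limma adjusted p = 0.38 and 0.40). Irf7 and Stat2 had log2 fold changes between -0.018 and 0.21.

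**Figure D4:**
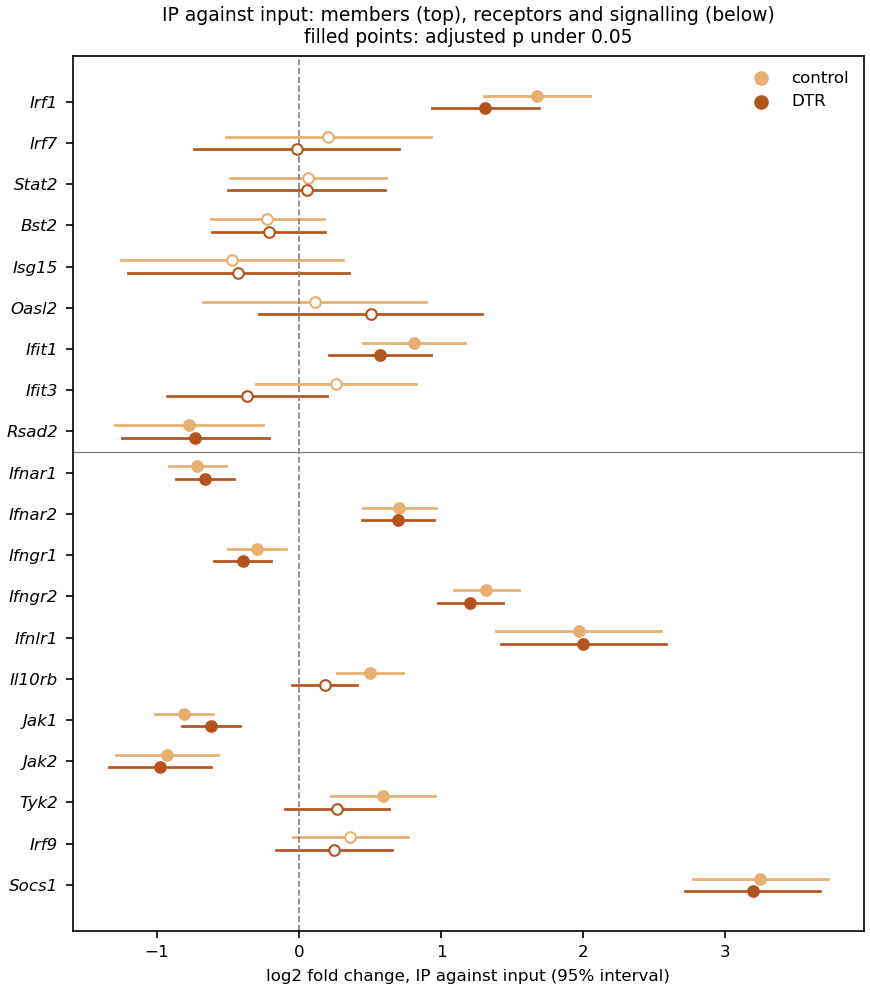
Log2 fold change of IP against input (x axis) in controls and in DTR samples for the 9 genes (top) and for interferon receptors and signalling genes (below), with 95% intervals from limma and filled points for an adjusted p under 0.05. Socs1, Ifnlr1, Irf1 and Ifngr2 lie above 1 in both genotypes, and Ifnar1, Ifngr1, Jak1 and Jak2 lie below 0.

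The rest of the interferon pathway was read from fixed lists. Of the ligands, 20 interferon genes were listed and none reached the level needed for a test. The highest was Ifnk, at a mean of 0.205 CPM in DTR inputs, and Ifnb1 had no read in any library. All 6 receptor chains were tested. None was called higher after damage, and only Il10rb, a chain shared by the interferon lambda and interleukin receptors, was lower, in IPs (log2 fold change -0.48, limma adjusted p = 0.0047), beside 7.3% of all tested genes. The chains differed between IP and input instead. In controls 4 were higher in IPs, Ifnlr1 (1.97), Ifngr2 (1.32), Ifnar2 (0.71) and Il10rb (0.50), and 2 were lower, Ifnar1 (-0.72) and Ifngr1 (-0.30), on the log2 scale, beside 19.3% and 20.7% of all tested genes. The call of Ifngr1 was lost in 3 of 29 alternatives. In DTR samples 3 were higher in IPs, Ifnlr1 (2.00), Ifngr2 (1.21) and Ifnar2 (0.70), beside 18.6%, and 2 were lower, Ifnar1 (-0.66) and Ifngr1 (-0.40), beside 20.5%, while Il10rb was not called (0.18, limma adjusted p = 0.21). Each of the 3 receptors for type I, gamma and lambda interferon is a pair of chains, and for types I and gamma the chain numbered 2 was the enriched member and the chain numbered 1 the depleted member. Ifnlr1, the chain specific to interferon lambda, stood at 46.3 ± 14.98 CPM in control IPs and 11.4 ± 3.33 CPM in control inputs.

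Of 9 receptor signalling genes, Jak1, a kinase of the receptors, was called higher (0.33) and Ptpn6, a phosphatase that opposes it, lower (-0.54) in DTR IPs, and Ptpn2, another such phosphatase, higher in DTR inputs (0.61), beside 8.44% of all tested genes called higher and 7.3% lower in IPs and 7.17% higher in inputs. The call of Jak1 was lost in 9 of 29 alternatives, and without DTR IP replicate 1 or control IP replicate 3 or 4 the IP count fell to 1. With the block the counts were 5 in IPs (Jak1, Irf9 and Ptpn2 higher, Jak2 and Ptpn6 lower, beside 11.8% and 10.4% of all tested genes) and 2 in inputs (Irf9 and Ptpn2 higher, beside 9.31%). Irf9, the partner of Stat2, had log2 fold changes of 0.33 in IPs and 0.45 in inputs and was not called (limma adjusted p = 0.28 and 0.16). Socs1, the inhibitor of the JAK kinases, was at 134 ± 8.06 CPM in control IPs and 13.7 ± 1.45 CPM in control inputs, a log2 fold change of 3.25 (limma adjusted p = 4.2e-09). With damage its log2 fold changes were 0.026 in IPs and 0.081 in inputs, and neither was called (limma adjusted p = 0.96 and 0.89). Of the 6 other IRF genes, Irf2, which competes with Irf1 for its sites, and Irf8, a factor of myeloid cells, rose in both fractions, beside 8.44% of all tested genes called higher in IPs and 7.17% in inputs, and none of the 6 was called lower. Irf2 went up by 0.64 in IPs and 0.93 in inputs, and Irf8 by 1.01 and 1.04, each with groups that did not overlap. Between IP and input in controls, Irf4 (1.67), Irf3 (0.75) and Irf2 (0.38) were called higher in IPs, beside 19.3% of all tested genes, and Irf8 lower (-0.75), beside 20.7%. In DTR samples 2 were called higher, Irf4 (1.46) and Irf3 (0.70), beside 18.6%, and 2 lower, among them Irf8 (-0.77), beside 20.5%.

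Among 15 tested sensors and adaptors of nucleic acid recognition, 5 were called higher in DTR IPs (8.44% of all tested genes) and 3 in DTR inputs (7.17%), and none lower, with median log2 fold changes of 0.24 and 0.29. Ddx58, the cytosolic RNA sensor RIG-I, was at 14.4 ± 0.694 CPM in control inputs and 47.4 ± 8.15 CPM in DTR inputs, a log2 fold change of 1.68 (limma adjusted p = 4.2e-07), and rose by 1.28 in IPs (limma adjusted p = 1.2e-05). Ikbke, a kinase that activates IRF proteins, rose by 1.06 in IPs and 1.01 in inputs, and Tmem173, the adaptor STING, by 0.48 and 0.51. Dhx58 (0.85) and Tbk1 (0.51) were called in IPs. Of the 15, Tlr7 passed the filter only through DTR inputs. It is part of the medians but not of the calls. The IP count fell to 3 without both DTR libraries of pool 4 (Ddx58, Tbk1 and Ikbke), and also without control IP replicate 3 or DTR IP replicate 4. The call of Dhx58 was lost in 11 alternatives, and those of Tmem173 in 9 in IPs and 7 in inputs.

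Of 44 other interferon-stimulated genes tested (47 listed), 7 were called higher and 1 lower in DTR IPs (all tested genes 8.44% and 7.3%), and 7 higher and 2 lower in DTR inputs (7.17% and 5.21%). Their median log2 fold changes, 0.27 and 0.26, were above those of all tested genes. In IPs the largest were Usp18, which removes Isg15 from proteins (1.20), Samd9l (1.14), Ifi27l2a (1.04), Ifitm3, a membrane protein that blocks virus entry (0.86), and Ifi27 (0.82). In inputs they were Ifi27l2a (1.37), Oasl1 (1.13), Usp18 (1.06), Rtp4 (0.97) and Lgals3bp (0.83). Of the 44, 5 passed the filter only through DTR groups, and Oasl1 was the only one of these among the calls. These 5 are part of the medians, and the call of Oasl1 is no support for a rise of the list. Trim25, a ubiquitin ligase that acts on the RNA sensor Ddx58, went the other way in both (-0.81 in IPs and -1.08 in inputs). The calls of Usp18 in inputs (limma adjusted p = 0.045) and of Lgals3bp in inputs (limma adjusted p = 0.035) were lost in 14 and 8 of 29 alternatives. With the block, 11 were called higher and 2 lower in IPs (all tested genes 11.8% and 10.4%), and 12 higher and 2 lower in inputs (9.31% and 7.83%). Without control IP replicate 1 or DTR IP replicate 4 the IP counts fell to 4 and 5, without control input replicate 2 or DTR input replicate 4 the input count fell to 4, and without both DTR libraries of pool 4 the counts were 5 and 8.

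Of 28 tested genes of the interferon gamma response and antigen presentation, 8 were called higher and 1 lower in DTR IPs (all tested genes 8.44% and 7.3%), and 7 higher and none lower in DTR inputs (7.17% and 5.21%). H2-K1, a class I histocompatibility heavy chain, went from 46.5 ± 7.67 to 119 ± 20.8 CPM in inputs (log2 fold change 1.32, limma adjusted p = 2.9e-05) and from 50.9 ± 10.7 to 119 ± 21.9 CPM in IPs (1.23, limma adjusted p = 5.9e-05). H2-D1, a second heavy chain, rose by 0.98 and 1.05, and B2m, their light chain, by 0.66 and 0.74. Cd74, the invariant chain of class II molecules, rose by 1.11 in inputs and 1.42 in IPs. Psmb8, an immunoproteasome subunit, rose in IPs (0.90). Of the 28, 4 passed the filter only through DTR groups, and their calls are no support for a rise of the list: the chemokine gene Cxcl10 (1.48 in inputs and 0.91 in IPs, from control means under 0.5 CPM), Ciita, the class II transactivator (1.19, called in inputs), Nlrc5, the class I transactivator (1.27, called in IPs), and Cd274, which was not called. H2-Eb1, a class II chain, was called lower in IPs (-0.52). In IPs the calls of Psmb8 and Cxcl10 were each lost in 5 alternatives, that of Nlrc5 in 3 and that of H2-Eb1 in 10, the block among them.

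**Figure D5:**
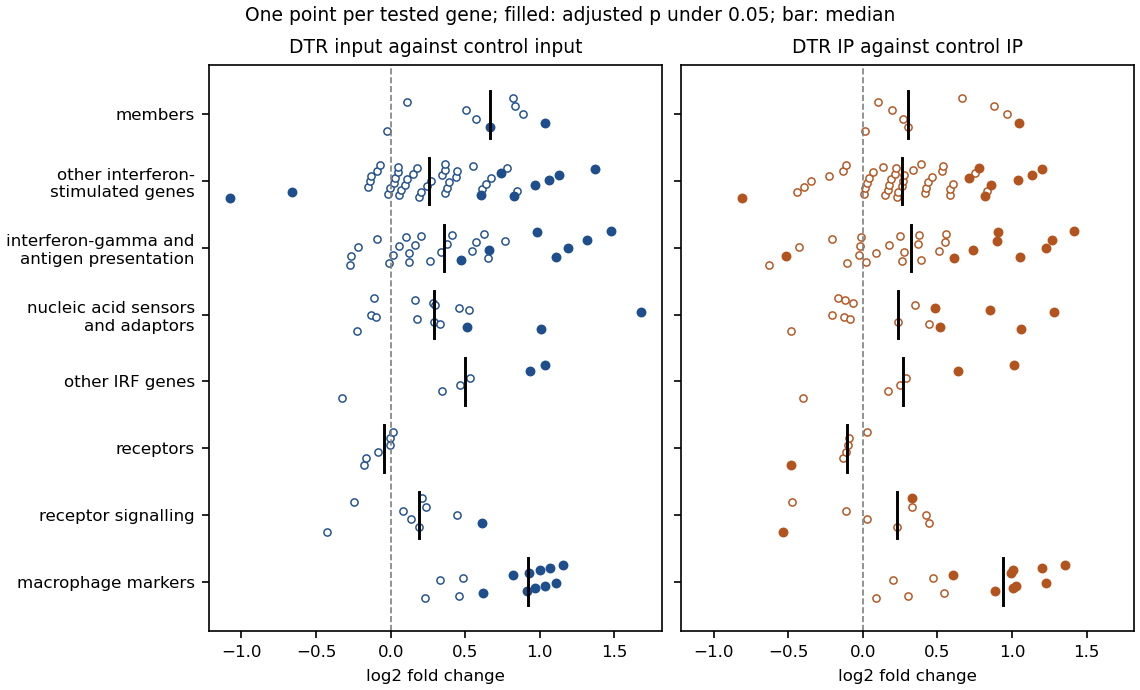
Log2 fold change of DTR against control (x axes) for every tested gene of each list (rows), in inputs on the left and IPs on the right, with filled points for an adjusted p under 0.05 and bars at list medians. The medians of the 9 members are 0.67 and 0.31, those of the receptors are near 0, and those of the macrophage markers are 0.92 and 0.94, the highest of the 8 lists drawn.

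Markers of other cells moved with damage beside these genes. All 15 macrophage markers had reads in every library, with Csf1r as the most abundant in control inputs. Their summed level was 201 ± 4.85 CPM in control inputs and 366 ± 65.3 CPM in DTR inputs, and 47.2 ± 8.71 CPM in control IPs and 101 ± 21.3 CPM in DTR IPs. Of the 14 tested, 10 were called higher in inputs (7.17% of all tested genes) and 9 in IPs (8.44%), none lower, and all 14 were lower in IP than in input in controls (20.7%) and in DTR samples (20.5%). The macrophage sum was thus several-fold lower in control IPs than in control inputs. In bulk tissue, more cells of a type and more RNA per cell cannot be told apart, and the part of macrophages in the rise of the interferon-stimulated genes was not tested. The 4 plasmacytoid dendritic cell markers were too low for a test in every group, with a sum of 0.792 ± 0.295 CPM in DTR inputs. Of 8 lymphoid markers 3 were tested, and Cd3d and Cd79a, of T cells and B cells, only because they reached the filter in DTR groups, so their calls as higher in both fractions are no support for a rise of the list. Their means were under 0.3 CPM in controls and between 1.27 and 1.65 CPM in DTR, while Cd3e stayed at 0.164 CPM or below in group means. Cd4, the other tested marker, also passed the filter in control inputs. It was called higher in inputs (7.17% of all tested genes) and not in IPs (8.44%). The sum of the 8 lymphoid markers was 1.88 ± 0.589 CPM in control inputs and 6.29 ± 0.671 CPM in DTR inputs. In IPs it was 0.574 ± 0.141 CPM in controls and 3.58 ± 0.512 CPM in DTR. Of 10 supporting cell and greater epithelial ridge markers, 7 were called lower in IPs (7.3% of all tested genes), where their sum was 21386 ± 3005 CPM in controls and 12027 ± 1491 CPM in DTR. In inputs 6 were called lower (5.21%) and 1 higher (7.17%), Otoa, at 0.46 (limma adjusted p = 0.046). The glial list had 2 of 5 called lower in IPs (7.3%) and 4 of 5 in inputs (5.21%). The summed level of 6 endothelial markers was 285 ± 20.5 CPM in control inputs and 384 ± 34.1 CPM in DTR inputs, and 103 ± 10.3 CPM in control IPs and 155 ± 10.3 CPM in DTR IPs, without overlap in either fraction, and 1 was called higher in inputs and 2 in IPs (7.17% and 8.44% of all tested genes). Beside the same shares, 2 of 6 mesenchyme markers were called higher in inputs and 3 in IPs, and 0 of 7 hair cell markers in inputs (1 at an unadjusted limma p under 0.05) and 2 in IPs. Whether these shifts in tissue content bear on the 9 genes was not tested.

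The 9 genes did not share a single profile across the 16 libraries. Pearson correlations, given as descriptions over libraries that share pools and groups, were highest between Irf7 and Oasl2 (0.87), Ifit1 and Irf1 (0.86), Isg15 and Irf7 (0.82) and Isg15 and Oasl2 (0.82). They were most negative between Rsad2 and Ifit1 (-0.70) and between Rsad2 and Irf1 (-0.62). Irf7, Oasl2 and Isg15 thus follow each other, with DTR pool 4 at the top, and Irf1 and Ifit1 follow the split of IP and input, with Rsad2 against it. Bst2 correlated with Isg15 (0.80), Irf7 (0.72) and Oasl2 (0.70), and less with Stat2 (0.23) and Irf1 (0.053). Outside all lists, the genes most like the mean standardized value of the 9 over the 16 libraries were St5 (Pearson r = 0.88), Gpr62 (0.87), Lzts2 (0.86), Tnfrsf10b (0.85), Gm15908 (0.85) and Rhpn1 (0.84). St5 was at 91.5 ± 4.05 CPM in control inputs, 101 ± 9.80 CPM in control IPs, 129 ± 17.9 CPM in DTR inputs and 128 ± 6.45 CPM in DTR IPs.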

How the data were processed

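RNA-seq was analysed in 16 libraries from P4 cochleae. The authors deposited CPM values, in which the counts of each gene are scaled to library depth. Their methods name HISAT2 2.0.4, HTSeq and GRCm38, and the submitters' processing notes also name TopHat. The annotation release and strand setting are not given in the sources used here. Libraries were made with the SMART-Seq v4 kit. All nonzero values the authors deposited (100%, tolerance 0.01 reads) came out as whole reads, so read counts and depths were recovered, 28089836 to 41966310 reads per library. The number of reads limits the precision of low genes, and read-count limits cover counting error only. Of 50316 genes listed, 2587 had no value in any library and 173 had no name. Groups came from the sample labels, and the fourth replicate carries the number 6 in the deposited columns.

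CPM values were quantile normalized, and log2(CPM + 0.5) was fitted in limma 3.58.1 (R 4.3.3) with trended variance over all 4 groups, for the 16994 genes that reached 0.5 CPM in every library of some group, and p-values were adjusted by Benjamini-Hochberg over all of them. Scripts were tested on simulated data. Same-numbered samples deviated together in every comparison (Pearson r over genes from 0.288 to 0.559), so a fit with a block is given where it changes a call. Between IP and input the block was the pool, whose input and IP share a homogenate. For damage it was the replicate number, which pairs control and DTR pools. Nothing in the labels says that same-numbered control and DTR pools share a litter or day. Alternatives were edgeR 4.0.16 quasi-likelihood and DESeq2 1.42.0 on recovered counts, other scalings, pseudocounts and filters, the compared groups alone, and each library left out. The members, lists and tests were chosen with earlier results of these data known. Named genes were the 9 members, all tested receptors, signalling genes and other IRF genes, the called genes with the 6 largest changes per fraction in the other interferon lists, sensors and macrophage markers, and the 6 genes most like the members; further called genes of those lists, the lymphoid markers, Lgr5, Slc1a3 and Sox2 were named after their values were seen. Positions are from GENCODE M21 on GRCm38 and promoters from RefSeq on GRCm38.p6. The values of some listed genes are not reported here.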

Additional observations from a re-analysis of the deposited data

Results flagged for a closer look

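Values of 1 library that stood apart from the other 3 of its group were looked for in 60 genes and 4 groups, by the gap to the nearest library over the group's range, against the critical value of Dixon's test at 95%. Of 240 groups of 4, 20 were picked out, and chance alone picks out about 1 in 20. DTR replicate 4 was the high library in 6 of the 20. These were Stat2 in DTR input replicate 4 (30.5 CPM, others 11.6 to 14.4), Oasl2 in DTR input replicate 4 (16.9 CPM, others 4.79 to 5.85) and Rtp4 in DTR input replicate 4 (25.3 CPM, others 14.2 to 15.6), and Rtp4 in DTR IP replicate 4 (25.8 CPM, others 14.03 to 15.6), Nlrc5 in DTR IP replicate 4 (2.56 CPM, others 0.828 to 0.964) and Irf9 in DTR IP replicate 4 (65.5 CPM, others 40.9 to 43.9).

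Among the members, the other values were a high one of Irf1 in DTR IP replicate 2 (76.9 CPM, others 51.4 to 55.0), and low ones of Ifit3 in control IP replicate 1 (0.478 CPM, others 0.999 to 1.08) and Oasl2 in control input replicate 2 (3.49 CPM, others 4.71 to 4.81).

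Elsewhere in the pathway lists, high values were those of Usp18 in control input replicate 4 (2.82 CPM, others 1.57 to 1.77), Lgals3bp in control IP replicate 4 (39.3 CPM, others 24.1 to 26.5) and Psmb8 in control IP replicate 2 (1.95 CPM, others 1.11 to 1.15). Further high values were Ptpn2 in control IP replicate 1 (52.7 CPM, others 40.4 to 42.4) and Irf5 in DTR IP replicate 1 (3.12 CPM, others 1.66 to 1.89). Low values were those of Ifnar2 in control input replicate 1 (34.3 CPM, others 37.3 to 37.6), Ifngr2 in control IP replicate 4 (228 CPM, others 294 to 302) and Il10rb in control input replicate 3 (51.5 CPM, others 60.1 to 61.6). Further low values were Il10rb in DTR IP replicate 4 (49.9 CPM, others 63.4 to 64.7), Tmem173 in control IP replicate 1 (19.0 CPM, others 20.4 to 20.7) and Aif1 in DTR IP replicate 2 (1.92 CPM, others 4.41 to 4.84). No cause of these values was tested.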

How the results depend on the processing

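Each count is followed by the share of all tested genes called higher in the same fit. For damage in IPs, 1 of the 9 genes was called (8.44%), and the count was 2 on CPM without quantile normalization (10.1%), 2 in edgeR (7.86%), 4 in DESeq2 (9.27%), 3 with the replicate block (11.8%) and 2 with the block and without number 4 (7.88%). With each library left out it ranged from 1 to 2. For damage in inputs, 2 genes were called (7.17%), and the count was 4 on CPM without quantile normalization (7.64%), 4 with libraries centred on their medians (7.51%), 4 in edgeR (7.5%), 6 in DESeq2 (8.05%), 5 with the replicate block (9.31%) and 1 without both DTR libraries of pool 4, in limma (7.06%) and in edgeR (6.93%). With each library left out it ranged from 1 to 4. The fits without pool 4 and the block without number 4 were chosen after seeing the data, and the cause of these differences was not tested. The counts between IP and input (3 in each genotype) lay between 2 and 4, and no member was called for the interaction under any alternative. Bst2 was called in all 29 alternatives in both fractions, with log2 fold changes of 0.92 to 1.22 in IPs and 0.93 to 1.13 in inputs, and Irf1 and Ifit1 were called between IP and input in all 29. No called gene changed direction. The call of Rsad2 between control IP and input was also lost with no filter (limma adjusted p = 0.06). Ifit3, tested only through the DTR groups, is 1 of the input calls on CPM without quantile normalization, with median centring, in edgeR, in DESeq2 and with the block, and did not pass a filter of 2 CPM. Beside the calls given in the report, the block changed no other member's call. Depth limits the low genes, above all Ifit3 with 16 to 87 reads per library.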
